A study of Caenorhabditis elegans with 2 samples.

Results

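The genes drr-2 (WBGene00011730) and set-16 (WBGene00011729) lie back to back on chromosome III of Caenorhabditis elegans and are transcribed away from each other from starts 346 bp apart. Between those starts lay 1 of the strongest binding sites found for the zinc finger protein ZTF-23, with a signal value of 17132, rank 3 in every peak list. The 2 genes, of 19973 protein-coding genes on the nuclear chromosomes, were selected on that measured signal. Its size and rank are therefore a description and were given no test. Signal here is the value that the authors' peak caller wrote for each region, on a scale not given in the sources used here. The combined 17132 stood beside 8170 and 9002 in the replicates, so a combined signal cannot be set against a replicate's.

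The data came from chromatin immunoprecipitation and sequencing (ChIP-seq), in which DNA bound to a protein is pulled down with an antibody and sequenced. There was 1 group of 2 biological replicates, both from strain RW12279, which carries the allele st12279[ztf-23::TY1::EGFP::3xFLAG] on chromosome I, a CRISPR insertion of tags at ztf-23. The material was whole midembryonic animals, aged 1.5 hours and synchronized by egg bleaching per the labels, and their sonicated chromatin was precipitated with an anti-GFP antibody. No comparison between groups is possible, a control library was not analysed here, and the stage could not be checked against marker genes because the files hold peaks and no expression. Both replicates carry the same tagged allele and 1 shared donor label, so the values average over all cell types of the embryo and over 1 strain.

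A divergent promoter is a stretch of DNA that lies between gene starts pointing in opposite directions and can serve both genes. Transcription factors bound there are often seen as a single peak of ChIP-seq signal, which by itself does not say which of the genes, if either, they act on. drr-2 encodes a homolog of the translation initiation factor eIF4H, which stimulates the RNA helicase eIF4A, and it was named for its part in the lifespan response to dietary restriction. set-16 encodes a histone H3 lysine 4 methyltransferase of the MLL family, the enzymes that mark promoters and enhancers of active genes.

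The DNA between the starts carried copies of a few short sequences around the ChIP summit, the base at which the authors placed the peak's maximum, and these are shown with the same stretch at 5 other strongly bound divergent pairs. Sequences are from the RefSeq copy of assembly WBcel235, the same as ce11, plus strand, 5′ to 3′. Capitals mark GGGGC followed after 2 or 3 bases by TACGCA, or its reverse complement, and the palindrome of TGGC and GCCA with 5 bases between them. The first line holds 300 bases between the drr-2 and set-16 starts, chrIII:13643591-13643890, from 149 bases before to 150 bases after the summit. The other lines start 50 bases before their own summits and end 50 bases after them, except that of ctf-4/eef-1G, which ends 33 bases after it with the match that spans the eef-1G start. They are chrIV:2389094-2389194, chrV:10965642-10965725, chrII:6588979-6589079, chrIII:5018258-5018358 and chrIII:10748151-10748251, in the order of their signals. Together with drr-2/set-16 and rps-10/rpl-24.1, whose sequence is not shown, these are the 7 strongest divergent pairs. The stretches of sec-61.B/trap-3 and larp-1/wip-1 hold no exact match and so no capitals.
drr-2/set-16: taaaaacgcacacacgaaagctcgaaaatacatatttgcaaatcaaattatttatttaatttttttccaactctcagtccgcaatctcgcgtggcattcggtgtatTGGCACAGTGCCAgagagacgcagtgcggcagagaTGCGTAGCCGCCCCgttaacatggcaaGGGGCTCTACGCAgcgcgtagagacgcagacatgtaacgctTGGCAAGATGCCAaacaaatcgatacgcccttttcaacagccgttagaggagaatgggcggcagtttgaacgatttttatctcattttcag
sec-61.B/trap-3: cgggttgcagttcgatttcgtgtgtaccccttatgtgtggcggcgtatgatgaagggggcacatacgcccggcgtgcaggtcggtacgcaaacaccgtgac
ctf-4/eef-1G: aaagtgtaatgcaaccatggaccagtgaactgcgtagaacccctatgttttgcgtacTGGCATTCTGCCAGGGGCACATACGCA
icd-1/vps-32.1: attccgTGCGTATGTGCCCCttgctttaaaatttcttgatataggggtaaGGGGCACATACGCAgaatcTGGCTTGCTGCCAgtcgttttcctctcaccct
larp-1/wip-1: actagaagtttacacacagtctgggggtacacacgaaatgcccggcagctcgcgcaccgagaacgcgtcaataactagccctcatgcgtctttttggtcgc
ran-1/dkc-1: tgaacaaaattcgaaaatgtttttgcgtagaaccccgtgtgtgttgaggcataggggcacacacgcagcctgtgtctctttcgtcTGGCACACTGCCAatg

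The peak between drr-2 and set-16 was a single region that covered both gene starts and ended almost equally far beyond each. In the combined list that the authors named conservative it spanned chrIII:13643474-13644012 on ce11, 539 bp wide, with its summit at base 13643740. That summit was 170 bp upstream of the drr-2 start at 13643570 and 176 bp upstream of the set-16 start at 13643916. It lay 3 bp from the middle of the gap, at 0.491 of the way from drr-2 to set-16. The peak ran 96 bp past each start, and 64 and 31 bp past the start codons of drr-2 and set-16. Measured between the start codons, which are 443 bp apart, the summit was at 0.456 of the way, 202 bp from drr-2 and 241 bp from set-16. All 310 words of 36 bases in the gap, which makes up 64.0% of the peak, occurred once in the genome. Words in the rest of the peak were not counted. The position of the summit cannot assign the peak to either gene.

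The peak was in all 8 deposited lists, and both replicates placed it at the same base. Replicate 1 gave it a signal of 8170 over chrIII:13643478-13644007 and replicate 2 a signal of 9002 over chrIII:13643496-13643988, each with its summit at 13643740. The mean was 8586 ± 589 (SD, n = 2) and replicate 2 was 1.10 times replicate 1. These values were 89.5% of the strongest signal in the replicate 1 list and 87.7% of that in the replicate 2 list. The replicates were scored separately and their depths are unknown, so their ratio includes any difference in depth. The combined signal of 17132 stood at rank 3 of 2234 in the conservative list and of 2413 in the other combined thresholded list. It stood at rank 3 of 959 and of 1233 in the thresholded lists of replicates 1 and 2, and at rank 3 of 59587 and of 58911 in their ranked lists.

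Paired values within the other ranked lists lay closer together than those of the replicates, but cannot be read as agreement between replicates. Each replicate's own list covers 1 sample, so its 2 compared sets are not separate replicates. Ranked lists hold all regions that entered the irreproducible discovery rate (IDR) comparison, which sets the ranks of regions in 2 sets against each other, and they give a signal for each set. One combined ranked list of 104803 regions compares the replicates themselves. The other, of 104882 regions, compares sets whose origin is not given in the sources used here, and there the peak had 8617 and 8550, a ratio of 0.992. Within the replicate 1 list the compared sets had 4145 and 4036, and within that of replicate 2 they had 4476 and 4525. Their summits were between 1 bp before and 7 bp after the combined one. The peak had the highest score, 1000, in all 8 lists and a −log10 IDR of 5 in all 4 ranked lists. That value is a ceiling, shared by 80 regions of the combined ranked list that compares the replicates, and it cannot order them.

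Apart from the peak, 2000 bp on either side of the starts held only weak regions, none in a thresholded list. Counting every list, 25 regions reached into that stretch: 1 in each of the 4 thresholded lists, 6 in each combined ranked list, 4 in the ranked list of replicate 1 and 5 in that of replicate 2. In the combined ranked list that compares the replicates, the strongest of the 5 weak regions had a signal of 78.7 at rank 6240 of 104803, in an intron of set-16, 1082 bp downstream of its start. A region in a coding exon of drr-2, 786 bp downstream of its start, had 61.1 at rank 15171. Another in a coding exon of set-16, 1991 bp downstream of its start, had 55.0 at rank 20617. The other starts within 2000 bp belong to T12D8.10 (WBGene00023450, 1243 bp from the drr-2 start) and acbp-5 (WBGene00011731, 1882 bp from it, one of the acyl-CoA binding protein genes), and no non-coding gene starts there. Regions in coding exons of T12D8.10 and acbp-5 had signals of 6.93 at rank 98036 and 19.1 at rank 76942. The scores of the 5 weak regions were 511, 511, 360, 261 and 253, below the 830 at which the thresholded lists begin.

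In the replicates' own ranked lists the weak regions of drr-2 and set-16 were also listed, and those of T12D8.10 and acbp-5 were not. The combined ranked list that compares the replicates repeats the replicates' values for its drr-2 and set-16 regions. Their listing there is therefore not a second finding. That combined list does give both T12D8.10 and acbp-5 a pair of compared values, 34.3 and 42.4, higher than the 28.3 and 27.4 of its drr-2 exon region. Only 54.1% and 53.7% of that list's compared values equal a region in the ranked lists of replicates 1 and 2, and the source of the others is not given. In replicate 1 the set-16 intron had a region of 49.2 at rank 2681 of 59587, with a set-16 exon at 31.0 and an annotated 3' UTR of drr-2 at 28.3. In replicate 2 the set-16 intron had 31.5 at rank 20778 of 58911, with 2 set-16 exons at 27.2 and 22.1 and a drr-2 exon at 27.4. The peak between the starts was 218 times the next region in the combined list, 166 times in replicate 1 and 286 times in replicate 2. Whether the weak regions hold bound protein was not tested.

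**Figure D1:**
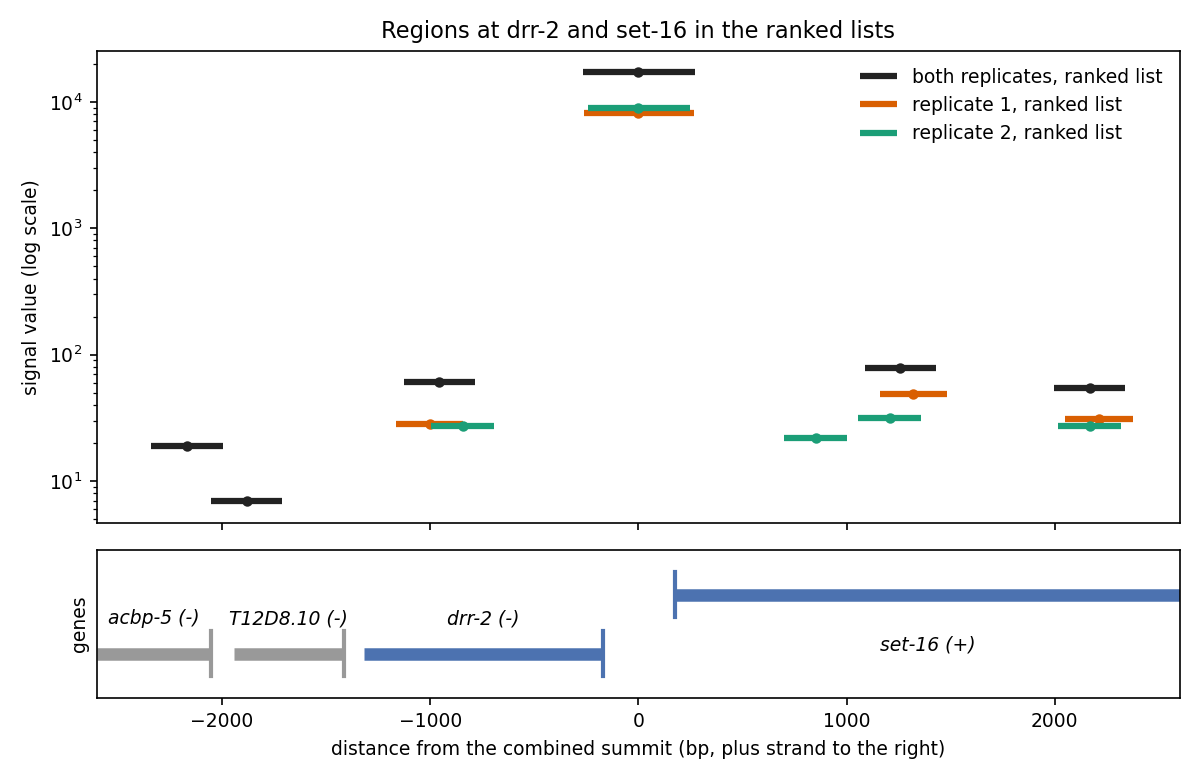
Regions listed around drr-2 and set-16, with distance from the combined summit in bp on the x axis and signal value on a log y axis. Each bar is 1 region with its summit as a point, for the combined ranked list that compares the replicates and for each replicate, and the lower panel shows the genes with a tick at each start. The central peak stands at 17132 in the combined list, and every other region is at 78.7 or below.

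Divergent pairs with a peak between them were a minority, so drr-2 and set-16 belong to a defined subset. Of 2560 pairs of protein-coding genes with divergent starts at most 2000 bp apart, 329 had a conservative summit between the starts, or 12.9% (exact Clopper-Pearson 95% interval 11.6 to 14.2%, for counting error only). The share was 7.30% (187 pairs) with replicate 2 left out, 4.73% (121 pairs) with the 500 strongest peaks, and 4.93% (398 of 8080) when pairs were formed from genes of any annotated type. The drr-2/set-16 pair was chosen for its peak, so its presence among the 329 is no result. The other 328 pairs had a median signal of 169, with 102.6 and 535 at the 5th and 95th percentiles. Only 2 of them exceeded the 17132 of drr-2/set-16. Across all 329 pairs, 9 had a signal over 1000.

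The strongest pairs kept one order in both replicates, with drr-2/set-16 in the third place. The first was sec-61.B/trap-3, which encode parts of the endoplasmic reticulum's protein translocation machinery, with a combined signal of 19378 and replicate signals of 9129 and 10262. Next was ctf-4/eef-1G, a sister chromatid cohesion gene and the gamma subunit of translation elongation factor 1, with a combined signal of 17955 and replicate signals of 8496 and 9477. The range of drr-2/set-16 over the replicates, 8170 to 9002, overlapped that of ctf-4/eef-1G and lay below that of sec-61.B/trap-3. It lay above that of icd-1/vps-32.1, a nascent polypeptide-associated complex subunit and an ESCRT-III component, which had 7242 and 7736 and a combined 14986. Then came rps-10/rpl-24.1, genes of ribosomal proteins, with a combined 14280, and larp-1/wip-1, an RNA-binding protein and a WASP-interacting protein, with 13971. With 2 replicates these orders were not tested. Between the coding starts of sec-61.B/trap-3, icd-1/vps-32.1 and rps-10/rpl-24.1 lay 2 non-coding gene starts each. There were 0 at drr-2/set-16, ctf-4/eef-1G and larp-1/wip-1. Whether those peaks belong to the non-coding genes was not tested.

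Further down the order the signal dropped off. The pair ran-1/dkc-1, a nuclear transport GTPase and the pseudouridine synthase dyskerin, had a combined signal of 7410, which drr-2/set-16 exceeded 2.31-fold. K01G5.10/tasp-1 had 3088, K12H4.6/K12H4.5 had 1468 and ecps-1/atx-2, the last of the 10 strongest pairs, had 792. By the distance between log2 signals in the 2 replicates, the pairs most like drr-2/set-16 were ctf-4/eef-1G at 0.09, sec-61.B/trap-3 at 0.25, icd-1/vps-32.1 at 0.28, rps-10/rpl-24.1 at 0.38 and larp-1/wip-1 at 0.42. These distances use the signals that chose the pair and are a description.

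**Figure D2:**
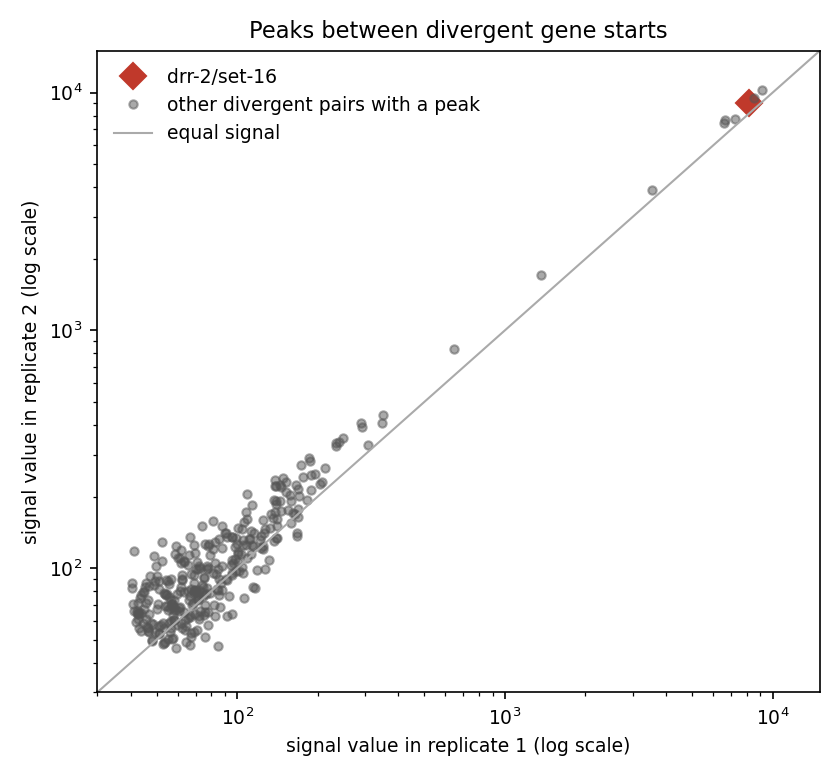
Signal of the peak between divergent starts in replicate 1 (x axis) and replicate 2 (y axis), both on log scales, for drr-2/set-16 and for the other divergent pairs with a peak that have a region in both replicates. The line marks equal signal. The drr-2/set-16 point, at 8170 and 9002, is among the 6 pairs with the highest signals, at the upper right.

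Both replicates put the drr-2/set-16 summit at 1 base, and at the 5 pairs most alike in signal their summits were 1 to 11 bp apart. The replicate 2 to replicate 1 ratio was 1.10 there, against a median of 1.20 over 324 other pairs with a region in both replicates, whose 5th and 95th percentiles were 0.793 and 1.85. The distance between the replicates' summits was 0 bp, against a median of 18.5 bp, and 10 of the 324 other pairs also had 0 bp. Signal was far lower at most of these 324 pairs, and its part in their summit distances was not tested. At the 5 pairs most alike in signal the distances were 1 bp at sec-61.B/trap-3, 3 bp at larp-1/wip-1 and 5 bp at ctf-4/eef-1G. They were 11 bp at icd-1/vps-32.1 and at rps-10/rpl-24.1. The ratios of these 5 pairs ran from 1.07 to 1.16.

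In its layout the pair was more compact and more symmetric than most. The 346 bp between the starts were against a median of 622.5 bp in the other 328 pairs with a peak, of which 65 had a shorter gap. Pairs without a peak had a median gap of 692 bp. The summit lay at 0.491 on a scale in which 0 is a start and 0.5 the middle, against a median of 0.276, and 12 of the 328 others were closer to 0.5. In base pairs its distance from the middle was 3 bp, against a median of 119 bp. Among the 5 other pairs of the first 6 this position ran from 0.150 at ctf-4/eef-1G to 0.418 at rps-10/rpl-24.1. A peak that covers both starts was found at drr-2/set-16 and at 35 of the 328 others, ctf-4/eef-1G among them. The peak was 539 bp wide, against a median of 344 bp, which is the most common width in this list and was given to 1944 of its 2234 peaks. Strong peaks were also wide, from 509 to 667 bp in the first 7 pairs.

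Pairs with almost the same gap did not share the signal. The 5 closest in gap, from 341 to 351 bp, had signals from 161 to 432. They were ruvb-1/tofu-1 with a signal of 161, C45G9.11/C45G9.2 with 183, dvc-1/ima-1 with 253, F44E5.4/F44E5.5 with 340 and gei-6/krr-1 with 432. The signal of drr-2/set-16 was 39.7 to 106 times theirs. Of these, F44E5.4/F44E5.5, a pair of closely similar Hsp70 genes, also had its summit at the middle, at 0.499. Reads from such similar genes can be hard to place, although the summit there lies between them.

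**Figure D3:**
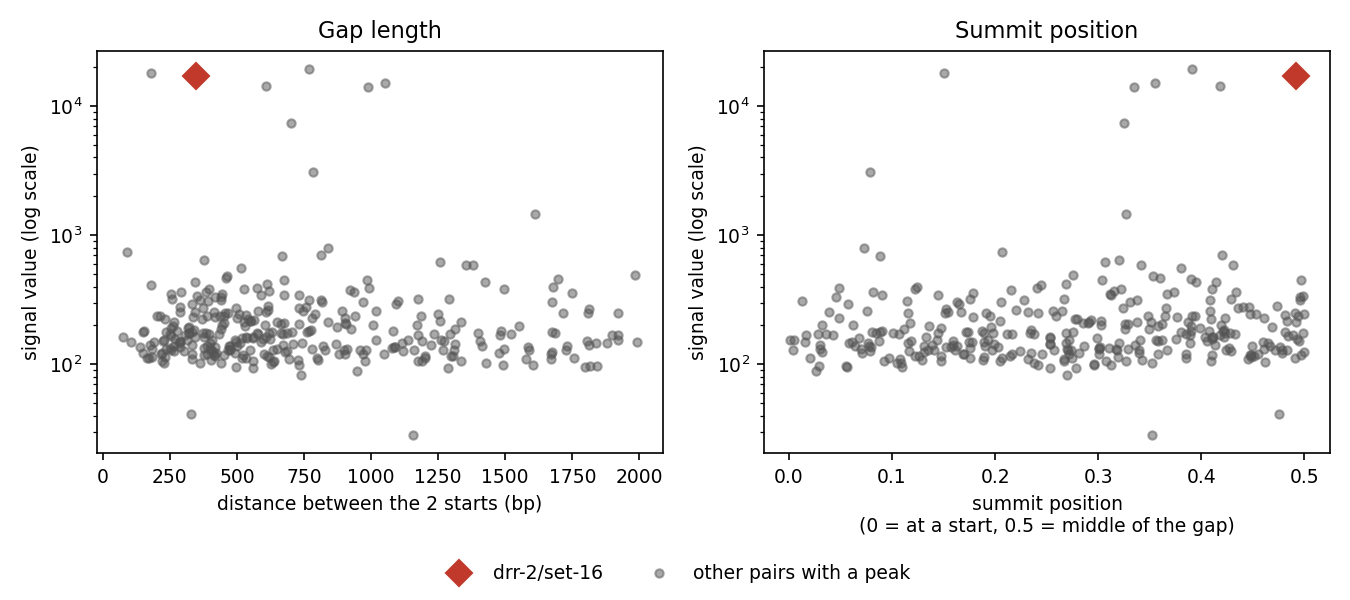
Combined signal value (log y axis) of divergent pairs with a peak against the distance between the starts in bp (left) and against the summit's position, where 0 is a gene start and 0.5 the middle of the gap (right). drr-2/set-16 is the diamond and each dot is 1 other pair. It combines a gap of 346 bp and a position of 0.491 with a signal of 17132.

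The signal next to the peak was within the range of other pairs. The strongest other region near drr-2/set-16 had 78.7, against a median of 65.4 over 325 other pairs, of which 89 had more. The ratio of peak to next region was 218, against a median of 2.76, and 1 pair had a higher ratio, ctf-4/eef-1G with 293. This ratio uses the signal that chose the pair and is a description. The other pairs most alike in signal also had ratios far above the median. These were 180 at icd-1/vps-32.1, 141 at rps-10/rpl-24.1, 110 at sec-61.B/trap-3 and 95.04 at larp-1/wip-1.

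The DNA under the summit was rich in G and C. In the 101 bases centred on it the G and C content was 61.4%, against a median of 49.5% at the summits of the other 328 pairs, and 7 of them had more. Over the whole gap it was 43.2%, against a median of 34.7%, and 12 of 328 had more. The shares of windows with a sequence given next were not corrected for base composition. For pairs without a peak the window was centred on the middle of the gap, since they have no summit.

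Of 7 short promoter motifs searched on both strands in those 101 bases, the drr-2/set-16 window held 1. This was GAGAGA, present once, in 16.5% of the windows of other pairs with a peak and in 6.45% of those without. It directly follows the left palindrome. TATAAA was absent there and was present in 3.66% of other pairs with a peak and in 13.98% of those without. TGATAA, the core of a site for GATA factors, was absent and present in 2.44% and 10.4%. TTTTTT was absent and present in 24.4% and 47.3%. CACGTG, an E-box, was absent and present in 1.83% and 1.93%, TTCGCG in 9.15% and 3.36%, and CCCGCC in 11.3% and 2.29%. A missing motif says only that these letters are not in this window.

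The 101 bases held 90 distinct words of 8 bases, counting a word and its reverse complement as 1. Of these, 25 were in the window of no other pair with a peak and 8 were in at least 10 other windows. The most shared was GAGACGCA, present 2 times at drr-2/set-16, in 22 other windows with a peak (6.71%) and in 20 of 2231 without (0.896%). AGACGCAG, which overlaps it by 7 bases, was in 19 and 22 windows. GTGCGGCA was in 12 other windows with a peak (3.66%) and in 4 without (0.179%). GCTGCGTA, whose reverse complement contains TACGCA, was in 10 (3.05%) and in 2 (0.0896%).

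The motifs in capitals were chosen after reading the windows, so their shares are a description of these windows. TACGCA occurred 2 times in the 101 bases at drr-2/set-16, on opposite strands. It was in 11.9% of the windows of the other pairs with a peak, in 4.12% of those without, and in 5 of the 9 other pairs among the 10 strongest. GGGGC also occurred 2 times, and it was in 12.2% of other windows with a peak and 3.63% of those without. Over all 2213 nuclear conservative peaks the shares were 6.33% for TACGCA and 14.6% for GGGGC. Each TACGCA at drr-2/set-16 stood 3′ of a GGGGC. On the minus strand, 3 bases separated them, and the match GGGGCGGCTACGCA (chrIII:13643732-13643745) covered the summit itself. On the plus strand, 2 bases separated them, and the match GGGGCTCTACGCA (chrIII:13643759-13643771) lay 19 to 31 bases after the summit. A match is a description of the letters and not a measured binding site.

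Joined this way and matched exactly, the motif was rare in the genome and most matches were near peaks, but not when 1 base could differ. The nuclear chromosomes held 23 exact matches on either strand, 12 with 2 bases between the parts and 11 with 3. Of the 23, 15 (65.2%) had their middle within 100 bp of a conservative summit, while 0.444% of nuclear bases lie that close to one. With at most 1 of the 11 fixed bases different, 28 of 395 matches (7.09%) were that close, the 15 exact matches included. Of the 15 exact matches, 7 were at the 10 strongest divergent pairs, among them the windows from which the motif was read, and 8 were at other summits. The 15 matches fell at 10 summits, and 6 of these were among the 9 strongest nuclear peaks. The summit of drr-2/set-16 held 1 match of each spacing. The other 9 summits held matches of a single spacing, and 4 of these 9 held 2 matches. With 1 or 4 bases between the parts, no window of a pair with or without a peak and no window of the 2213 nuclear peaks held a match.

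Of the 10 strongest pairs, 5 had an exact match within 100 bp of the summit: drr-2/set-16, ctf-4/eef-1G, icd-1/vps-32.1, rps-10/rpl-24.1 and larp-1/wip-1. The pairs sec-61.B/trap-3 and ran-1/dkc-1 had at best a match with 1 of the 11 fixed bases different, at 5 to 18 and at 3 to 16 bases after their summits. The remaining 3 pairs, all with a signal of 3088 or less, had at least 3 bases different.

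The palindrome of TGGC and GCCA occurred 2 times around the drr-2/set-16 summit. Its letters are the inner part of the sequence that nuclear factor I proteins recognise, TTGGC and GCCAA with 5 bases between them. TGGCACAGTGCCA (chrIII:13643697-13643709) lay 43 to 31 bases before the summit and TGGCAAGATGCCA (chrIII:13643800-13643812) lay 60 to 72 bases after it, the second within a full TTGGCAAGATGCCAA. In windows of 201 bases the palindrome was in 6.40% of other pairs with a peak and in 0.717% of those without, and in 4 of the 9 other pairs among the 10 strongest. In windows of 101 bases it was in 3.66% and 0.628%. Over all 2213 nuclear conservative peaks it was in 2.30% of windows of 201 bases and in 0.949% of windows of 101 bases. Which protein, if any, contacts these letters was not measured.

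**Figure D4:**
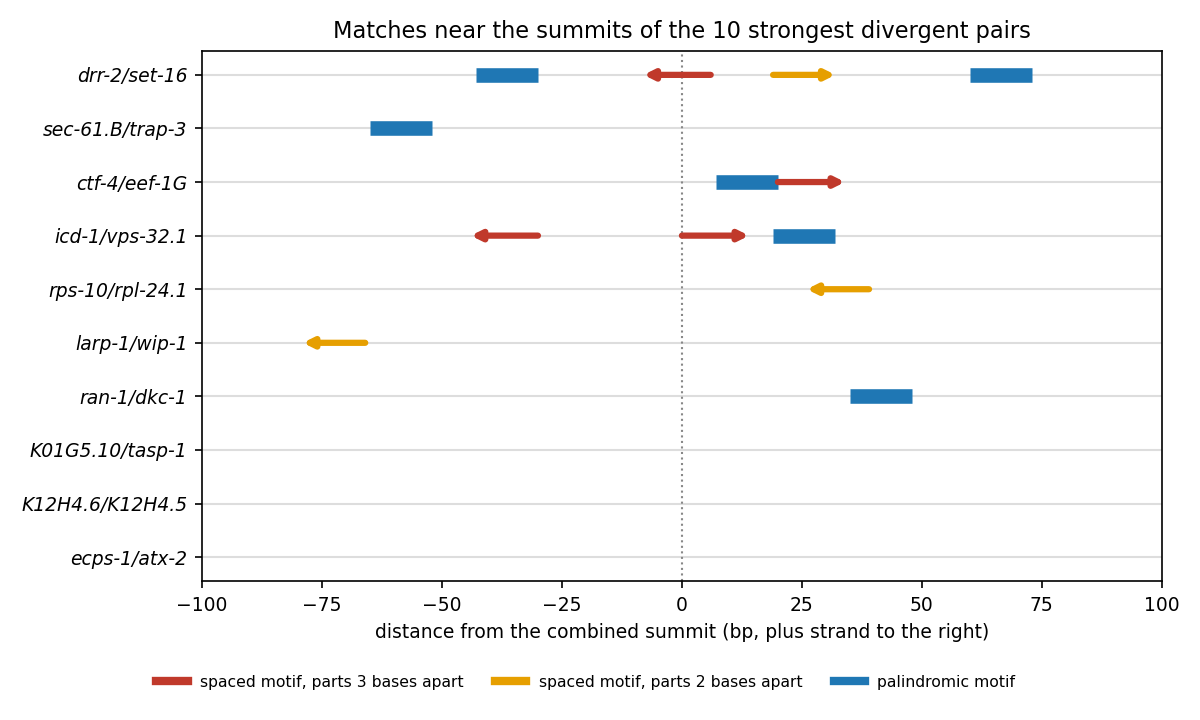
Positions of matches within 100 bp of the summit at the 10 strongest divergent pairs, drr-2/set-16 at the top and the others by falling signal, with distance from the combined summit in bp on the x axis. Arrows mark the spaced motif of GGGGC and TACGCA on its strand, in one colour for each spacing, and bars the palindrome of TGGC and GCCA. drr-2/set-16 has 1 arrow of each spacing and 2 bars.

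Other genes of the same pathways that had a peak had signals from 110.3 to 189, near the median of 129 of all conservative peaks. Of all protein-coding genes, 5.29% had a conservative summit within 500 bp of the start. For cap-dependent translation initiation, the step in which drr-2 acts, the share was 33.3%, or 4 of 12 listed genes. Besides drr-2 they were ife-2 and ife-4, which encode cap-binding eIF4E proteins, and pab-2, a poly(A)-binding protein. Their signals were 110.3, 114.8 and 176, with summits 130, 206 and 134 bp upstream of the starts. The replicates had signals of 50.03 and 53.0 at ife-2, 61.7 and 57.3 at ife-4 and 91.5 and 89.6 at pab-2. The other 8, ife-1, ife-3, ife-5, ifg-1, inf-1, pab-1, ncbp-1 and ncbp-2, had no such summit. Without drr-2 the count was 3 of 11. With drr-2 it was 2 of 12 in the list of either replicate alone, where the share over all genes was not counted.

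The list for set-16 holds genes of the SET1 and MLL complexes and genes of H3K27 demethylases. Of its 14 listed genes, 3 (21.4%) had a summit within 500 bp. Besides set-16 they were set-2, the SET1-type H3K4 methyltransferase, with a signal of 141 and a summit 251 bp upstream, and ash-2, a core subunit shared by these complexes, with a signal of 189 and a summit 450 bp downstream. The replicates had signals of 47.2 and 89.8 at set-2 and of 101.1 and 90.7 at ash-2. Without set-16 the count was 2 of 13. The demethylase gene utx-1, whose mammalian counterpart sits in the same complex as the MLL proteins related to set-16, had no such summit. These lists are too short, and were chosen with these results known, to set apart from the 5.29% of all genes.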

How the data were processed

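The members and gene lists were chosen with earlier results of these data known. The deposited files were 8 region lists on ce11, per the labels: for each replicate and for both combined, ranked lists of all regions and shorter thresholded lists. The signal (column 7) is the peak caller's value as deposited by the authors, its scale not stated. The score, from 0 to 1000, and the −log10 IDR were also deposited by the authors. Not given in the sources used here are the aligner, the peak caller, its settings and the read depth. No precision from depth can therefore be stated. The file descriptions name a control file, not analysed here. All columns of per-sample values were used (0 left out).

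Gene starts came from Ensembl release 115 on WBcel235, the same assembly as ce11, and sequences from RefSeq. A divergent pair is 2 protein-coding genes on opposite strands, starts at most 2000 bp apart and facing away, and has a peak when a conservative summit lies between the starts. A pair's replicate signal is that of the strongest overlapping region in the replicate's ranked list. The text names drr-2, set-16, genes starting within 2000 bp, the 10 strongest pairs, the 5 most alike in replicate signal, the 5 closest in gap and listed genes with a peak. No test between groups was possible with 1 group of 2 replicates. The alternatives covered the list used, each replicate alone, the 500 strongest peaks, gap and window sizes, start codons and the letters matched. Pair and site finding were checked on simulated data. Python 3.11.15, numpy 2.4.6, pandas 2.3.3, scipy 1.17.1 and matplotlib 3.10.9 were used.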

Additional observations from a re-analysis of the deposited data

How the results depend on the processing

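The rank of drr-2/set-16 stayed 3, among peaks and among divergent pairs, in the other combined list and with either replicate left out. Among pairs it also stayed 3 with gaps up to 1000 bp, with any overlap of the gap and with any annotated gene. The limit of 1000 bp could not change it, since the 2 stronger pairs have gaps of 770 and 180 bp. The replicate ratio of drr-2/set-16 stayed 1.10 under both alternatives tried, but these read the same region of each replicate and could not change it. Of 37 alternatives, 29 kept a count within 1.5 times or left another value unchanged, and 8 did not. The number of divergent pairs with a peak, 329, was 121 with the 500 strongest peaks only and between 187 (replicate 2 left out) and 243 with 1 replicate left out. The summit position, 0.491, was 0.456 between start codons. The count of cap-dependent initiation genes, 4, was 2 with either replicate left out and 1 with the 500 strongest peaks. The SET1 and MLL count, 3, was 1 with the 500 strongest peaks and between 2 and 3 with 1 replicate left out. Of spaced matches, chosen after seeing the data, 15 of 23 were near a summit, 15 with either replicate left out, 13 within 50 bp, and 28 of 395 when 1 base could differ. The replicate lists and the 500 strongest peaks hold fewer regions, and allowing a differing base admits more matches, by construction. The start codons move both ends of the gap. No paired analysis was possible because there was 1 group. Read depth is unknown, so it cannot be said which weak regions around drr-2 and set-16 would pass the threshold with more reads, and 2 replicates allow no test of the order among the strongest pairs.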
